A study of Mus musculus with 21 samples.

Results

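The 6 genes described here encode EF-hand proteins, which bind calcium ions, and were grouped as calcium buffers. How far each protein acts as a buffer in these cells was not tested. The genes are *Pvalb* (parvalbumin), *Calb1* (calbindin), *Calb2* (calretinin), *Ocm* (oncomodulin, also called beta-parvalbumin), *S100a1* and *S100b*. They were chosen by name, not by their values, though earlier results of these data were known, and all 6 were found among the 52550 genes of the count table. RNA was sequenced from cells picked out of the mouse inner ear (C57BL/6 strain) in 7 groups of 3 libraries each. The groups were spiral ganglion neurons (SGNs), the neurons that carry sound signals from the cochlea to the brain, at 5 ages from E15.5 to P30, with P1, P8 and P14 between, hair cells (HCs) at P12 and glia of the SGN area at P8. Which of these buffer genes rise as SGNs mature, and which separate SGNs from HCs and glia, are the questions the groups allow.

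All groups carried a Cre-dependent tdTomato reporter (Rosa26-CAG-loxp-stop-loxp-tdTomato), and the only agent named was tamoxifen, which switches CreER on. Each cell type had its own Cre driver, so driver genotype and cell type cannot be told apart. The sources used here do not state whether the drivers alter the genes they are named for. SGNs came from ShhCre/+ mice, in which the cells that once expressed *Shh* stay red, and each library held 69 to 195 manually picked cells. HCs came from Atoh1-CreER+ mice given tamoxifen at P0 and P1, and pooled cochlear and vestibular HCs, about 1200 cells a library. The labels say that HCs were sorted by hand, while the methods of the study describe flow sorting. Glia came from vGlut3-iCreER/+ mice given tamoxifen at P2 and P3, with only the SGN area dissected, and 86 to 125 cells a library. The labels do not say whether replicates came from separate animals, so p-values measure only the spread between these libraries. HCs were taken at P12, an age at which no SGNs were, so age and cell type cannot be told apart between them, while P8 glia have SGNs of the same age beside them.

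Free calcium carries information in both cell types: it sets transmitter release from HCs and from SGN endings. Buffers bind part of the calcium within each pulse and so shape how far and how long the signal spreads, whereas EF-hand sensors pass the signal on to other proteins. Oncomodulin is a classical protein of outer HCs, S100 and calbindin antibodies are used to stain HCs, and calretinin and calbindin mark different subsets of mature type I SGNs. S100b is also a classical antigen of Schwann cells and other glia. In bulk samples like these, fewer cells of a type and less RNA per cell cannot be told apart.

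The binding site of an EF-hand is a loop of 12 residues in which side chains at fixed places hold the ion. The 6 genes differ in how many such loops their longest coding sequence holds by the PROSITE EF-hand signature: 5 in *Calb2*, 4 in *Calb1*, 2 each in *Pvalb* and *Ocm*, and 1 each in *S100a1* and *S100b*. S100 proteins also have an atypical loop near their start that this signature does not describe. The coding bases of 1 loop are printed for 5 of the 6 genes, the loop within a single exon that was most like a loop of another member, to show how alike the genes are and where they still differ. The codons in capitals are loop positions 1, 3, 5, 9 and 12, whose side chains face the ion (5′ to 3′ on the coding strand, GENCODE transcripts, GRCm38).
Pvalb, chr15:78202526-78202561, minus strand: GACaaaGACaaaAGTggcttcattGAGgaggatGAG
Ocm, chr5:144024433-144024468, minus strand: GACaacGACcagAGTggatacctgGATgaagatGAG
Calb1, chr4:15895644-15895679, plus strand: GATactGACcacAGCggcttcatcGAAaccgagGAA
Calb2, chr8:110149362-110149397, minus strand: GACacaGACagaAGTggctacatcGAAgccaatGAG
S100a1, chr3:90511284-90511319, minus strand: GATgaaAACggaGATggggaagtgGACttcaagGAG

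Of the 36 bases, the *Pvalb* loop shared 28 with that of *Calb2* and 27 with that of *Ocm*. Among the loops printed, those of *Calb1* and *S100a1* shared the fewest, 15. No run of 50 bases in any transcript of a member was found in a transcript of another gene, and no exon of another gene lay over a member's exons, so read sharing between these genes or with a paralog was not visible in the annotation. *S100b* lies within the span of *Dip2a* on the opposite strand, without exon overlap.

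Total counts on genes ran from 10368240 to 37287489 a library (median 20384100), so that 3 counts, the floor used here, stand for 0.0805 to 0.289 CPM, counts scaled to the library total. SGN markers (*Slc17a6*, *Slc17a7*, *Lypd1*) summed to 37.6 to 601 TPM in SGNs and at most 9.71 in HCs, HC markers (*Myo6*, *Myo7a*, *Pou4f3*, *Gfi1*) to 1288 to 1441 TPM in HCs and at most 107 in SGNs, and glial markers (*Sox10*, *Foxd3*) to 189 to 341 TPM in glia and at most 26.2 in SGNs. TPM are counts divided by exon length and scaled to the same total in each library, the scale on which genes are compared here. Orders and ranges of libraries are given in TPM, and some of them differ in CPM. Among SGN libraries P14 replicate 1 had the highest HC sum and P8 replicate 1 the highest sum of *Sox10* and *Foxd3*. The sum of 6 Schwann cell myelin genes was highest in P8 replicate 2 instead, at 1436 TPM. Glia replicate 1 had an SGN marker sum of 38.4 TPM against 5.12 and 1.82 in the other glia libraries. Members' differences between P14 SGNs and HCs and between P8 SGNs and glia are given without P14 replicate 1 or glia replicate 1 too. Without P8 replicate 1 the *S100b* log2 fold change was 1.67 from P1 to P8 (1.64 with it) and 2.80 for P8 SGNs against glia (2.76 with it). Without P8 replicate 2 *S100b* was called in both comparisons too.

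Together the 6 genes came to 332 ± 141 TPM in E15.5 SGNs (SD, n = 3). In P1 SGNs they came to 1177 ± 207 TPM, in P8 SGNs to 1461 ± 547, in P14 SGNs to 2251 ± 1013 and in P30 SGNs to 1542 ± 562. The sum was 7082 ± 526 TPM in HCs and 230 ± 159 TPM in glia. Their make-up differed between the groups too. *Pvalb* gave 62.3% of it in E15.5 SGNs and 36.6% to 40.5% at the later ages, while *Calb2* went from 2.44% at E15.5 to 33.9% at P14. In HCs, *S100a1* gave 57.9% and *Ocm* 35.5%, and the other 4 genes shared the small rest.

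**Figure D1:**
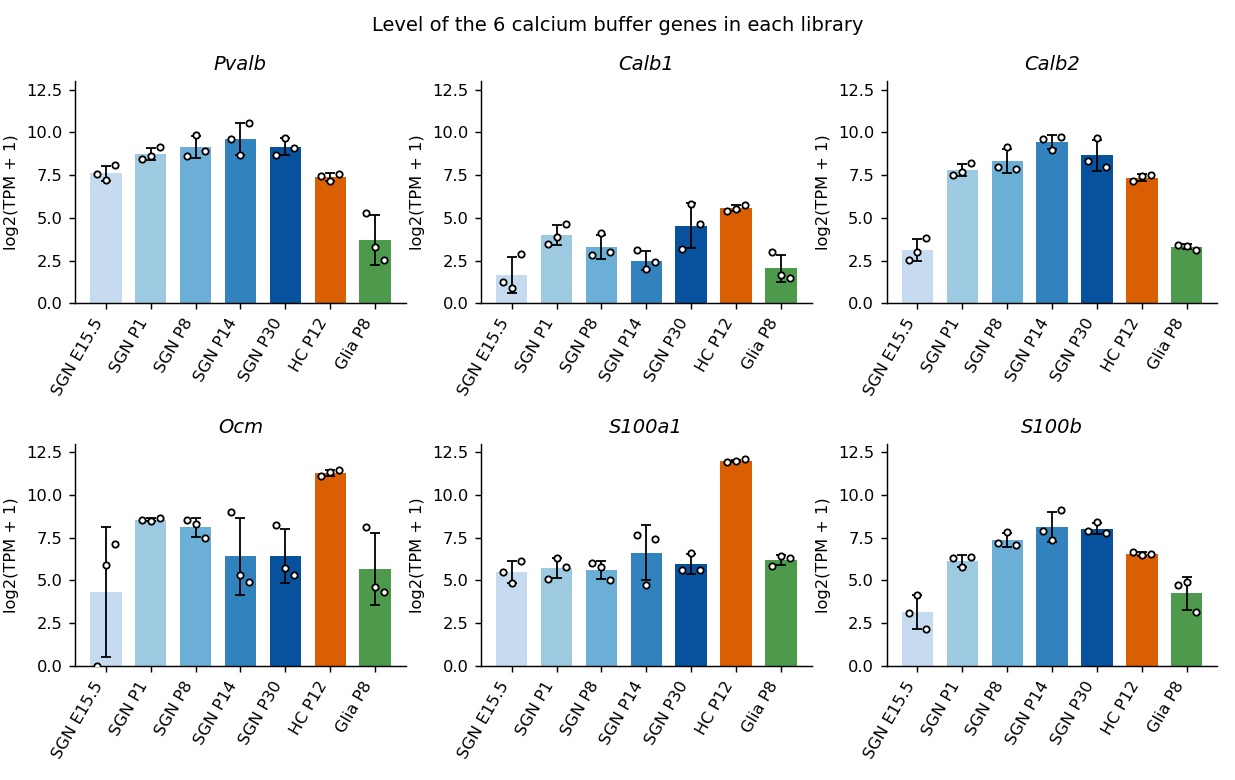
Level of each gene as log2(TPM + 1) in the 7 groups, with bars at the mean of 3 libraries, error bars at 1 SD and 1 point per library. *Pvalb*, *Calb2* and *S100b* are lowest among SGNs at E15.5, and *Ocm* and *S100a1* are highest in HC P12, with means of 2520 and 4092 TPM.

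**Figure D2:**
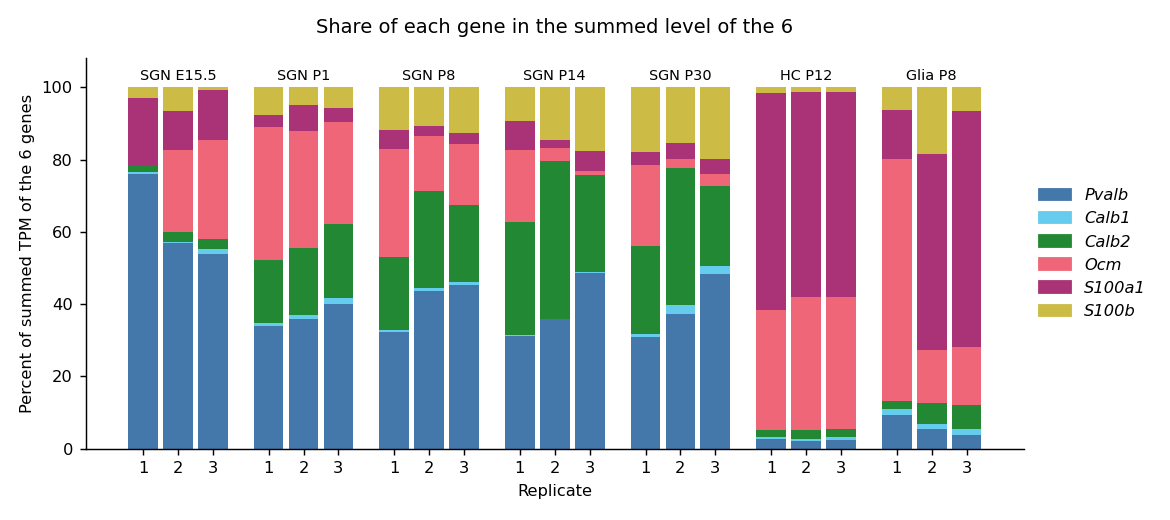
Percent of the summed TPM of the 6 genes that each gene takes, 1 stacked bar per library, replicates 1 to 3 of each group side by side. *Pvalb* and *Calb2* together fill the larger part of every SGN bar after birth, and *S100a1* and *Ocm* fill the HC bars.

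Between ages, the test was limma on voom-weighted counts with TMM scaling over the 15 SGN libraries, and a gene was called at an adjusted p under 0.05 (Benjamini-Hochberg over 15113 genes) with a fold over 2. From E15.5 to P30, 4 of the 6 members were called, all higher at P30, where 34.6% of all genes tested were called. These were *Calb2*, *S100b*, *Calb1* and *Pvalb*, in order of the size of the difference. By the moderated F test for any difference among the 5 ages, the same 4 members passed, where 43.9% of all genes did. *Ocm* and *S100a1* passed neither. The single steps called fewer: 2 members from E15.5 to P1 (background 8.26%), 1 from P1 to P8 (7.44%), 1 from P8 to P14 (0.536%) and none from P14 to P30 (0.0596%). In that last step limma gave 1 member, *Calb1*, an unadjusted p under 0.05, and DESeq2 called 1 and edgeR 0.

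**Figure D3:**
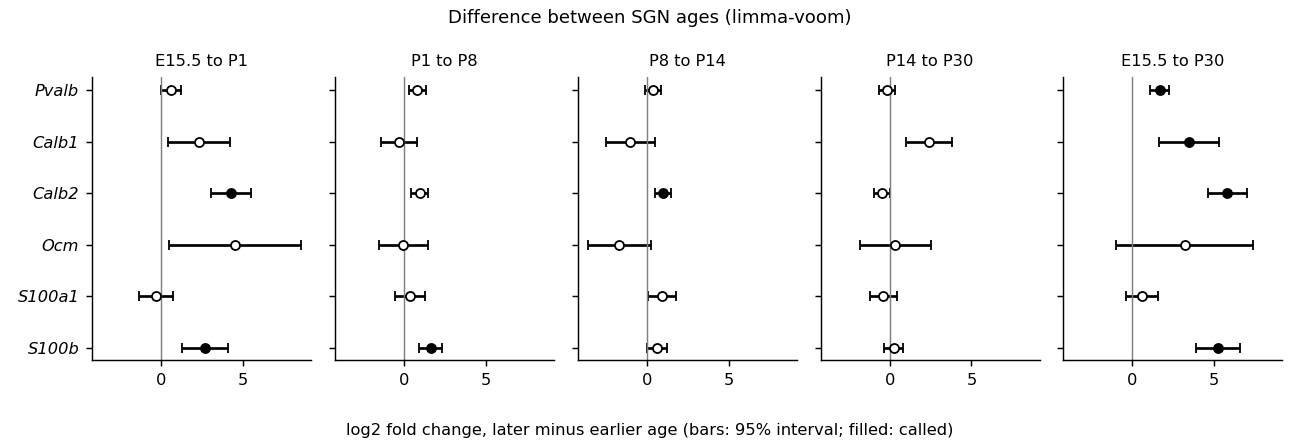
Log2 fold change of each gene, later minus earlier age, for the 4 steps and for E15.5 to P30, with 95% intervals from limma, filled where called. The intervals of *Calb2* and *S100b* lie above 0 from E15.5 to P1 and from P1 to P8, and the interval of *Ocm* is the widest in every panel, from -0.98 to 7.35 for E15.5 to P30.

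*Calb2* (chr8:110137502-110168210, minus strand), the gene of calretinin, showed the largest difference of the 6 over the ages. At E15.5 it stood at 4.69, 7.07 and 13.1 TPM in replicates 1 to 3, the order used throughout, and at P1 at 180, 201 and 291 TPM. It reached 248, 564 and 230 TPM at P8, 795, 490 and 831 TPM at P14, and 323, 828 and 248 TPM at P30. Every library from P1 on lay above every E15.5 library, whereas the later ages each overlapped the next in TPM. In CPM, P1 (186 to 219), P8 (295 to 403) and P14 (578 to 832) did not overlap. P30 (362.2 to 786.5) overlapped P8 and P14 there. From E15.5 to P1 *Calb2* rose by a log2 fold change of 4.27 (SE 0.58, limma adjusted p = 0.00039), and from E15.5 to P30 by 5.80 (SE 0.57, limma adjusted p = 9.8e-07). From P1 to P8 the log2 fold change was 0.97 (limma adjusted p = 0.017), just under the fold set for a call, and it passed without P1 replicate 2 (1.04) or without P8 replicate 1 (1.10). The step from P8 to P14, 1.01 (SE 0.22, limma adjusted p = 0.046), was called, but the call was lost when any 1 of the 6 libraries was left out, with values of 0.78 without P14 replicate 2 to 1.15 without P14 replicate 1. P14 replicate 2, the lowest of its age in TPM, was the highest in CPM, at 832 against 578 and 580.

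*S100b* (chr10:76253853-76261159, plus strand) was the other member with a large difference. Its levels at E15.5 were 7.53, 16.8 and 3.48 TPM, and at P1 they were 78.4, 53.4 and 80.9 TPM. P8 libraries held 144, 225 and 137 TPM, P14 libraries 235, 164 and 548 TPM, and P30 libraries 238, 337 and 221 TPM. The E15.5, P1 and P8 ranges did not overlap each other, and P14 and P30 overlapped. *S100b* rose by 2.69 on the log2 scale from E15.5 to P1 (SE 0.67, limma adjusted p = 0.018), by 1.64 from P1 to P8 (SE 0.33, limma adjusted p = 0.0043) and by 5.22 from E15.5 to P30 (SE 0.64, limma adjusted p = 9.5e-06). The first of these was 1.81 and lost its call without E15.5 replicate 3, and 3.64 without E15.5 replicate 2. Without the same libraries the E15.5 to P30 difference was 4.34 and 6.16, called in both. For P1 to P8, the adjusted p was 0.081 by edgeR's quasi-likelihood test and 0.056 by DESeq2, at log2 fold changes of 1.67 and 1.65.

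Because S100b is also a glial antigen, its level was set beside glial genes in the same libraries. *Sox10*, a transcription factor of glia, stood at 2.11, 0.531 and 0.140 TPM in the P30 SGN libraries, where *S100b* stood between 221 and 337 TPM. In glia, *Sox10* stood at 240, 239 and 115 TPM and *S100b* at 25.3, 29.3 and 7.87 TPM. The ratio of *S100b* to *Sox10* was thus 0.0683 to 0.122 in glia, and 113, 634 and 1579 in P30 SGNs. The last of these rests on 8 *Sox10* counts. Over all 15 SGN libraries the ratio ran from 0.218, in E15.5 replicate 3, to 1579, with a median of 22.0. At P8 it was 5.85, 16.84 and 16.86, and in HCs it ran from 2.64 to 3.59. The 6 Schwann cell myelin genes summed to 64.3 to 201 TPM at P1, 790 to 1436 TPM at P8, 228 to 887 TPM at P14 and 7.10 to 222 TPM at P30. In glia they summed to 7033 to 9603 TPM. The P1 to P8 step of *S100b* thus came with more myelin RNA. Its P30 level came with less myelin RNA than at P8, in a range that overlapped that of P1. What part glial RNA has in the *S100b* counts of SGN libraries was not tested.

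*Pvalb* (chr15:78191114-78206400, minus strand) had the highest mean TPM of the 6 in SGNs at every age. It was already present at E15.5, at 187, 145 and 267 TPM, and stood at 348, 391 and 564 TPM at P1. Later libraries held 396, 910 and 487 TPM at P8, 795, 402 and 1504 TPM at P14, and 411, 811 and 542 TPM at P30. All libraries from P1 on were above all E15.5 libraries, and the 4 later ages overlapped in TPM. In CPM all P1 libraries, at 214.8 to 254.4, lay below all P8 libraries, at 281.4 to 451.4. *Pvalb* rose by a log2 fold change of 1.67 from E15.5 to P30 (SE 0.27, limma adjusted p = 0.00016). No single step was called: the values were 0.62 to P1 (limma adjusted p = 0.17), 0.83 to P8 (0.038, at 1.77-fold), 0.37 to P14 (0.60) and -0.15 to P30 (0.998). Without P8 replicate 1 the P1 to P8 value was 1.02 and was called.

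*Calb1* (chr4:15881264-15908064, plus strand) was the lowest of the 6 in SGNs, with a mean below 30 TPM at every age. E15.5 libraries held 1.32, 0.890 and 6.36 TPM, P1 libraries 10.1, 13.5 and 23.9 TPM, and P8 libraries 6.06, 16.1 and 6.94 TPM. At P14 it stood at 7.56, 2.98 and 4.24 TPM, and at P30 at 8.13, 54.6 and 23.6 TPM. P1 and P30 were the higher ages, P14 and E15.5 the lower ones, and all P30 libraries were above all P14 libraries. From E15.5 to P30 *Calb1* rose by 3.46 on the log2 scale (SE 0.86, limma adjusted p = 0.0045), by 4.27 without P30 replicate 1 and by 4.16 without E15.5 replicate 3. Its P14 to P30 log2 fold change of 2.43 (SE 0.67) was not called (limma adjusted p = 0.28), while DESeq2 gave 2.83 with an adjusted p of 8.4e-05 and leaving out P30 replicate 1 gave 3.28 with a limma adjusted p of 0.0029. From E15.5 to P1 the value was 2.32 (limma adjusted p = 0.097), with an adjusted p of 0.028 by edgeR's quasi-likelihood test and 0.0014 by DESeq2.

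*S100a1* (chr3:90511034-90514392, minus strand) showed no called difference between SGN ages. It stood at 45.0, 27.3 and 68.1 TPM at E15.5, at 32.9, 77.5 and 55.2 TPM at P1, and at 64.0, 54.2 and 31.9 TPM at P8. P14 libraries spread most, at 203, 26.1 and 171 TPM, and P30 libraries held 48.9, 98.0 and 47.4 TPM. The ranges of all 5 ages overlapped. The E15.5 to P30 log2 fold change was 0.59, with a 95% interval from -0.37 to 1.54 (limma adjusted p = 0.31). By the F test over the ages its limma adjusted p was 0.082, and it passed by DESeq2 and without P1 replicate 2 or P14 replicate 2.

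*Ocm* (chr5:144019804-144026670, minus strand) varied widely between replicates of 1 age. It had 0 counts in E15.5 replicate 1 and 58.1 and 137 TPM in the other 2, then 378, 355 and 398 TPM at P1 and 368, 316 and 180 TPM at P8. At that depth 0 counts allow up to 0.233 CPM if counts are separate, and more if both ends of a pair are counted. At P14 it stood at 506, 39.3 and 29.3 TPM, and at P30 at 297, 52.5 and 38.3 TPM. Within P14 and within P30, replicate 1 was above the other 2 by a wide margin, and the ranges of E15.5 and P30 lay wholly below that of P1 in TPM. In CPM the P30 range, 21 to 149, overlapped that of P1, 124.9 to 164.5. From E15.5 to P1 the log2 fold change was 4.51 (95% interval 0.47 to 8.55, limma adjusted p = 0.13), and 1.5 without E15.5 replicate 1. For E15.5 to P30 it was 3.19 (limma adjusted p = 0.20), and 0.15 without E15.5 replicate 1.

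At 4 of the 5 ages the replicate with the most *Ocm* also had the most *Slc26a5*, the gene of prestin, the motor protein of outer HCs. *Slc26a5* stood at 0.0674, 7.22 and 12.7 TPM at E15.5, 36.6, 38.8 and 52.7 TPM at P1, 50.3, 5.68 and 3.29 TPM at P14, and 26.8, 6.85 and 4.88 TPM at P30. At P8, the exception, it stood at 29.4, 41.6 and 22.8 TPM, highest in replicate 2, while *Ocm* was highest in replicate 1. Over the 15 SGN libraries the correlation of the 2 genes in log2(TPM + 1) was 0.972 (Pearson r), and it was 0.962 over all 21 libraries, which share their groups and depth. Both genes also share the TPM scale of each library. The ratio of *Ocm* to *Slc26a5* had a median of 8.05 in SGN libraries (0 to 12.5), 4.58 to 4.86 in HCs and 6.04 to 7.80 in glia. As a percent of the HC mean, SGN libraries had a median of 7.13% for *Ocm*, 4.29% for *Slc26a5* and 10.4% for the outer HC marker *Lbh*. For the inner HC marker *Otof* the median was 0.569%. For the HC markers it was 3.60% (*Myo6*), 2.07% (*Myo7a*), 1.44% (*Pou4f3*, a transcription factor) and 0.57% (*Gfi1*). *Lbh* stood at 38.4 TPM in E15.5 replicate 1, where *Ocm* had 0 counts. What part RNA of outer HCs has in the *Ocm* counts of SGN libraries was not tested.

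**Figure D4:**
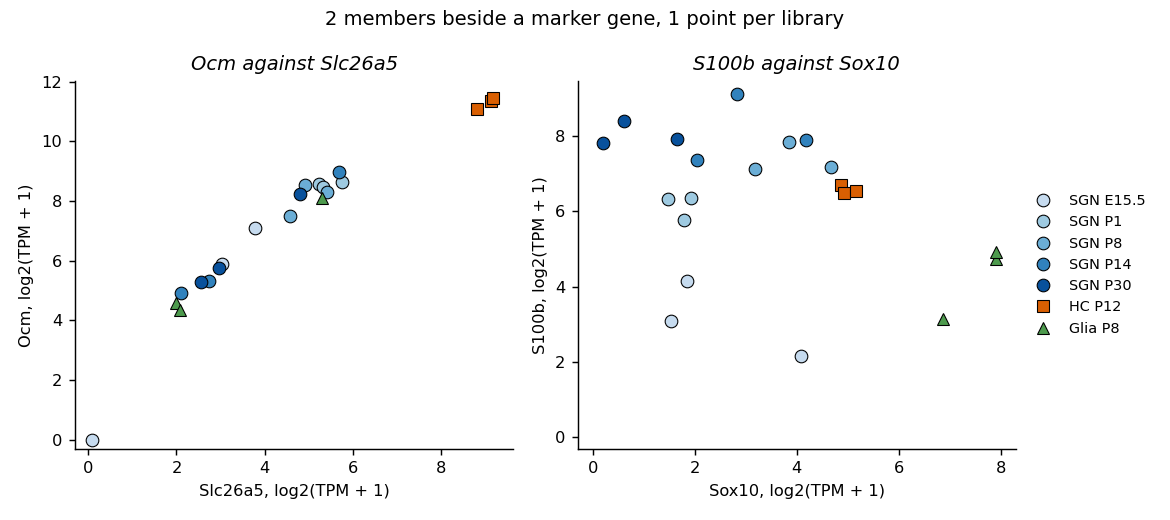
*Ocm* against *Slc26a5* (left) and *S100b* against *Sox10* (right) in log2(TPM + 1), 1 point per library, circles for SGNs by age, squares for HCs and triangles for glia. *Ocm* and *Slc26a5* rise together (r = 0.962 over 21 libraries), with a ratio of 4.58 to 4.86 in HCs, 6.04 to 7.80 in glia and a median of 8.05 in SGNs. The highest *S100b* levels are in P14 replicate 3 (548 TPM, *Sox10* 6.10 TPM) and P30 replicate 2 (337 TPM, *Sox10* 0.531 TPM). P14 replicate 1 has 235 TPM of *S100b* with 17.1 TPM of *Sox10*.

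Against HCs, 3 of the 6 members were called for the mean of the 5 SGN ages, where 26.8% of all genes tested were called, and 5 of 6 for P14 SGNs, the age nearest to P12, where 23.1% were. Here the fit held all 21 libraries and 17531 genes, and a call needed an adjusted p under 0.01 and a fold over 4. P14 SGNs had more *Pvalb*, *Calb2* and *S100b* than HCs and less *Ocm* and *S100a1*. *Calb1* was lower in SGNs by both contrasts without being called.

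*S100a1* stood furthest apart. It reached 3946, 4004 and 4325 TPM in HCs, and no SGN library was above 203 TPM. The log2 fold change of SGNs against HCs was -4.86 for the mean of the ages (SE 0.17, limma adjusted p = 1.7e-15) and -4.15 for P14 (SE 0.28, limma adjusted p = 7.3e-10). *Ocm* stood at 2179, 2592 and 2789 TPM in HCs, above all SGN libraries, the highest of which, P14 replicate 1, had 20.1% of the HC mean. Its log2 fold change was -3.35 for the mean of the ages (SE 0.54, limma adjusted p = 2.4e-05) and -3.51 for P14 (SE 0.87, limma adjusted p = 0.0024). Those 2 calls for *Ocm* were lost by edgeR's quasi-likelihood test (-2.60, adjusted p = 0.011, and -2.82, adjusted p = 0.092) and by DESeq2 (adjusted p = 0.015 and 0.054). For P14 the call was also lost without P14 replicate 2 (-3.40) or without P14 replicate 3 (-2.67), and the value was -4.75 without P14 replicate 1, the SGN library with the most HC marker RNA. Without that library the P14 difference of *S100a1* was -4.54.

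*Pvalb*, *Calb2* and *S100b* lay on the other side, higher in P14 neurons than in HCs. *Pvalb* stood at 170, 142 and 190 TPM in HCs, overlapping the range of E15.5 SGNs and below all older SGN libraries. In CPM the HC libraries, at 55.4 to 73.1, lay below E15.5 SGNs too, at 146 to 183. The log2 fold change of *Pvalb* was 2.74 for the mean of the ages (SE 0.36, limma adjusted p = 1.9e-06) and 3.43 for P14 (SE 0.39, limma adjusted p = 6.2e-07). *Calb2* stood at 139, 173 and 177 TPM in HCs, above all E15.5 SGN libraries and below all later ones. Its P14 difference was 3.29 (SE 0.30, limma adjusted p = 4.2e-08), and that of the mean of the ages was 1.36, under the fold set for a call. *S100b* stood at 102, 88.0 and 91.8 TPM in HCs, above all P1 and below all P8 SGN libraries. In CPM its HC range, 48.8 to 61.1, overlapped that of P1 SGNs, 49.5 to 69.1. The P14 difference of *S100b* was 2.75 (SE 0.40, limma adjusted p = 1.1e-05). That of the mean of the ages was 1.26 (limma adjusted p = 0.0086), under the fold set for a call. With library size alone in place of TMM, the median of all genes moved by -0.71 in the P14 comparison, and the values there were 2.72 for *Pvalb*, 2.59 for *Calb2* and 2.05 for *S100b*, called in each case. With TMM and without P14 replicate 1, they were 3.64, 3.41 and 3.11. *Calb1*, at 40.8, 45.0 and 52.4 TPM in HCs, was above all SGN libraries but P30 replicate 2. In CPM, HCs held 80.05 to 93.94, below P30 replicate 3 (96.15) as well as replicate 2 (144.4). The P14 difference of *Calb1* was -2.07 (SE 0.67, limma adjusted p = 0.015) and -2.25 without P14 replicate 1, called under 6 of 14 alternatives.

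**Figure D5:**
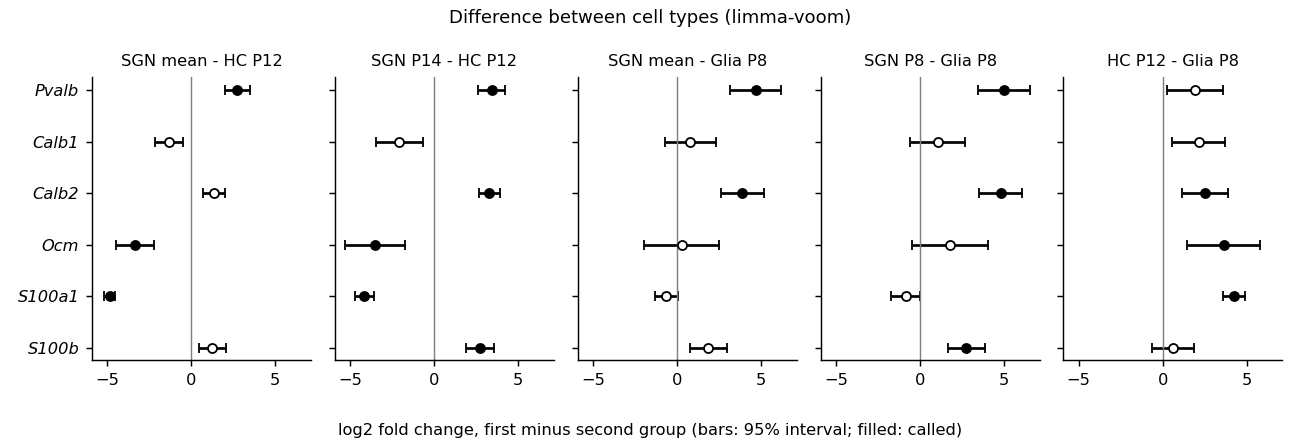
Log2 fold change of each gene, first minus second group, for SGNs against HCs, SGNs against glia and HCs against glia, with 95% intervals from limma, filled where called. *S100a1* and *Ocm* lie below 0 against HCs, at -4.86 and -3.35 for the mean of the ages, and *Pvalb* and *Calb2* lie above 0 in both SGN comparisons with glia.

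Glia held little of the buffers that lead in neurons. *Pvalb* was at 38.6, 8.61 and 4.69 TPM and *Calb2* at 9.48, 9.33 and 7.79 TPM in glia. *Calb1* was at 6.84, 2.11 and 1.82 TPM, and *S100a1*, at 56.2, 85.9 and 77.7 TPM, lay within the range of SGNs. The mean of the SGN ages exceeded glia in 2 called members, *Pvalb* (4.68, SE 0.72) and *Calb2* (3.89, SE 0.61), where 24.7% of all genes tested were called, and P8 SGNs exceeded P8 glia in 3, where 20.9% were. For the mean of the ages *S100b* was at 1.87 (limma adjusted p = 0.0052), under the fold set for a call, and it was called without E15.5 replicate 3. At P8 the log2 fold changes were 5.00 for *Pvalb* (SE 0.73, limma adjusted p = 1.8e-05), 4.82 for *Calb2* (SE 0.62, limma adjusted p = 4.1e-06) and 2.76 for *S100b* (SE 0.53, limma adjusted p = 0.00032). Without glia replicate 1, the glia library with the most SGN marker RNA, the *Pvalb* difference was 6.06 at P8 and 5.73 for the mean of the ages, and at P8 that of *Calb2* was 4.85 and that of *S100b* 3.03. *S100b* was thus lower in these glia than in P8 neurons, and its range in glia overlapped that of E15.5 neurons and lay below that of P1 neurons.

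*Ocm* in glia ran from 275 TPM in replicate 1 to 23.3 and 19.4 TPM in the others, and *Slc26a5* from 38.7 to 2.98 and 3.21 TPM. Between P8 SGNs and glia the *Ocm* log2 fold change was 1.78, with a 95% interval from -0.48 to 4.04 (limma adjusted p = 0.20), and 3.35 without glia replicate 1. For *S100a1* it was -0.85, with an interval from -1.71 to 0.02 (limma adjusted p = 0.11), and -1.11 without glia replicate 1.

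Set against glia, HCs were higher in 3 members, where 24.4% of all genes tested were called: *S100a1* by 4.22 (SE 0.32, limma adjusted p = 3.2e-09), *Ocm* by 3.63 (SE 1.04, limma adjusted p = 0.0074) and *Calb2* by 2.53 (SE 0.66, limma adjusted p = 0.0037). The *Ocm* call was lost under 10 of 14 alternatives, among them the omission of any 1 HC or glia library, and the value was 5.20 without glia replicate 1. That of *S100a1* was then 3.95. The *Calb2* call was lost without glia replicate 1, at a limma adjusted p of 0.020 and a log2 fold change of 2.56. *Pvalb* (1.93, limma adjusted p = 0.054) and *S100b* (0.61, 95% interval -0.65 to 1.87) were not called.

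*S100a1* has a close neighbour on chromosome 3. *S100a13*, another S100 gene, begins on the opposite strand, and 42 bases lie between the annotated starts of the 2 genes. They are printed because both genes were far higher in HCs than in SGNs (plus strand, chr3:90514393-90514434, RefSeq window on GRCm38.p6, 54.8% G or C): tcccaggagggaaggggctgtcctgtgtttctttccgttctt
*S100a13* stood at 464 ± 60.1 TPM in HCs (SD, n = 3) and at 2.17 ± 0.81 to 8.70 ± 8.87 TPM in the 5 SGN groups, with a log2 fold change of -5.98 for the mean of the ages against HCs (SE 0.39, limma adjusted p = 4.4e-11). The ratio of *S100a1* to *S100a13* was 7.88 to 10.1 in HCs, 7.93 to 54.5 in SGNs and 2.84 to 54.3 in glia. What part the bases between the genes have in these levels was not tested.

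Of 20 other buffers, EF-hand proteins and S100 genes, 10 passed the filter on low counts of the age fit. From E15.5 to P30, 2 of the 10 rose and 1 fell, and their median log2 fold change was 0.57 against -0.01 for all genes, of which 34.6% were called, a share close to that of these 10. *Efhd2*, an EF-hand protein of the cytoskeleton, rose by 5.18 (limma adjusted p = 1.0e-07), from 6.80 ± 1.73 to 219 ± 40.2 TPM. *Necab2*, a neuronal EF-hand protein, fell by 3.48 (limma adjusted p = 0.024), a call lost without P30 replicate 2 or 3. Against HCs, 2 of 11 tested were higher in the mean of the SGN ages, *S100a10* (3.36, limma adjusted p = 0.00033) and *Necab1* (3.19, limma adjusted p = 0.00023), and 4 were lower, where 26.8% of all genes were called. At P8, glia had more *S100a4* and *S100a6* than SGNs, at 8.06 ± 9.34 and 36.5 ± 30.2 TPM, and less *Necab1*, with 8 of 11 not called, where 20.9% of all genes were called. The *S100a6* call was lost under 9 of 14 alternatives, among them the omission of any 1 P8 SGN library, and that of *Necab1* (4.89) with quality weights.

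Of the EF-hand sensors, which pass calcium signals on, 15 of 21 were tested, and 8 rose and 2 fell from E15.5 to P30, where 34.6% of all genes were called. Their median log2 fold change was 1.74. *Vsnl1*, the gene of the neuronal sensor visinin-like 1, rose by 6.12 (SE 0.43, limma adjusted p = 2.8e-08), from 16.1 ± 9.14 to 958 ± 153 TPM. *Hpca*, the gene of hippocalcin, fell by 3.87 (limma adjusted p = 0.0038), to 0.615 ± 0.551 TPM. Of the sensors called lower in SGNs than in HCs, *Cabp2*, a calcium-binding protein of HCs, had the largest difference, with 679 ± 47.0 TPM and a log2 fold change of -6.16 in SGNs (limma adjusted p = 3.7e-14). Against HCs 5 of 16 sensors tested were higher in SGNs and 4 lower, where 26.8% of all genes were called. Against P8 glia 8 of 16 were higher in P8 SGNs and 1 lower, where 20.9% of all genes were called, with *Ncs1* (3.85) and *Calm3* (3.21) beside *Vsnl1* (4.78) as the largest.

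Pumps and exchangers, which remove the calcium that buffers hold, changed in part. From E15.5 to P30, 4 of 14 tested rose and 2 fell, where 34.6% of all genes were called, with a median log2 fold change of -0.09. *Slc24a2*, a potassium-dependent sodium/calcium exchanger, rose by 4.92 (limma adjusted p = 1.0e-08), from 9.03 ± 0.90 to 266 ± 119 TPM, and the plasma membrane calcium pumps *Atp2b3* and *Atp2b2* rose by 2.66 and 2.47. *Slc24a2* was also higher in SGNs than in HCs (6.68, limma adjusted p = 3.5e-06), whereas HCs had more *Atp2a3*, a pump of the endoplasmic reticulum (-4.63), and *Slc8a2*, a sodium/calcium exchanger (-2.68), and 12 of 16 were not called, where 26.8% of all genes were called. At P8, 6 of 16 were higher in SGNs than in glia and 1 lower, where 20.9% of all genes were called, led by *Atp2b3* (5.41), *Slc24a2* (5.38) and *Slc8a1* (5.36). The 2 cell type calls of *Slc24a2* were lost with no filter on low counts, and that of *Slc8a1* with quality weights.

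Among store and mitochondrial calcium genes, 2 of 20 tested rose from E15.5 to P30, below the 34.6% of all genes called. They were *Ryr2*, a ryanodine receptor (2.61, limma adjusted p = 1.4e-05), and *Micu3*, a regulator of mitochondrial calcium uptake (2.12, limma adjusted p = 1.3e-06). *Ryr1* was lower in SGNs than in HCs (-3.60, limma adjusted p = 3.2e-08), one of 3 called of 20, where 26.8% of all genes were called. At P8, SGNs had more *Ryr2* (4.16) and *Orai2* (2.70) than glia and less *Itpr3* (-3.99), which stood at 64.0 ± 14.1 TPM in glia. Without glia replicate 2 *Orai2* was at 2.21 and not called.

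Among 11446 genes, those whose log2(TPM + 1) was most like that of each member over the 21 libraries were listed by Pearson r. The points share 7 groups, and all genes of a library share its TPM scale. Nearest to *Pvalb* were the synaptic vesicle genes *Sv2b* and *Sv2a* (both 0.989) and *Rnf208* (0.978). *Calb2* was followed by *Cygb*, the gene of cytoglobin (0.980), *A2ml1* (0.961) and *Dlat*, of the pyruvate dehydrogenase complex (0.959), and *S100b* by *Aldoa*, a glycolytic enzyme (0.956), *Trnp1* and *Anxa6* (both 0.933). The genes nearest to *Ocm* were *Slc26a5* (0.962), *Gm5737* (0.943) and *Strc*, the gene of stereocilin in HC bundles (0.910), and nearest to *S100a1* were *Ccdc81* (0.980), *Gm1113* and *Enkur* (both 0.978). No gene followed *Calb1* as closely, with *Cacybp* at 0.872 and *Slc25a28* and *Slc4a2* at 0.855.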

How the data were processed

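Per the labels and the methods of the study, RNA of picked cells was amplified with oligo-dT and random primers, sequenced in pairs, aligned to mm10 with STAR 2.4.0i and counted per gene with featureCounts. The authors deposited raw counts for 21 libraries. Strand and multimapping settings are not given in the sources used here. Of counts from 1 to 20, 64.3% to 75.0% a library were even, so each pair of reads seems to count for both its ends. No molecular identifiers are described, so floors cover counting error only.

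Ensembl IDs were matched to symbols for 52403 of 52550 genes. TPM were computed from the counts and deposited lengths. Differences were fitted in R 4.3.3 with limma 3.58.1 (voom, TMM) on genes whose CPM was above 1 in each library of at least 1 group, after a test on simulated data. edgeR 4.0.16 and DESeq2 1.42.0 were alternatives, beside library size, quality weights, filters, a replicate block, other sample sets and leaving out each library. Members, gene lists and tests were chosen with earlier results of these data known. List genes named are up to 3 called genes per list and comparison with the largest log2 fold change and a mean of at least 5 TPM in a group, for E15.5 to P30, SGN mean against HCs and P8 SGNs against glia. Neighbours by r are the first 3 of the genes with a mean of at least 10 TPM in a group. Some genes and 1 sequence that the lists or rules would name are not reported here, and the SGN and glial marker sums are over the markers named.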

Additional observations from a re-analysis of the deposited data

How the results depend on the processing

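The 4 members called from E15.5 to P30 and by the F test kept their direction and call under all 15 alternatives of the former, and the F test called 4 to 5, with *S100a1* as the fifth. From E15.5 to P1, 1 member was called with quality weights or no filter, and 1 to 2 with a library left out. P1 to P8 gave 0 with edgeR or DESeq2 and 1 to 3 with a library left out. P8 to P14 gave 0 with edgeR, library size only, no filter, a filter at CPM over 10, or any library left out. P14 to P30 gave 1 with DESeq2 or the replicate block (*Calb1*), and 0 to 1 with a library left out. SGN mean against glia gave 1 with quality weights, and HC against glia gave 1 with quality weights or no filter and 1 to 2 with a library left out. The cause was not tested.

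Signs turned only for values that were never called. *Ocm* from P1 to P8, -0.020, was 0.0236 by edgeR, 0.00983 by DESeq2 and -0.30 to 0.20 with a library left out. *Ocm* from P14 to P30, 0.36, was -0.0550 with quality weights and -0.72 to 1.57 with a library left out. With a library left out, *Pvalb* from P14 to P30 ran from -0.36 to 0.12, *S100b* from P14 to P30 from -0.0824 to 0.551, and *Ocm* in the SGN mean against glia from -0.30 to 1.86.

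In none of the 8 pairs of groups compared did all same-numbered replicates deviate together with r over 0.1 (P1 with P8: 0.369, 0.0772 and 0.161). By that rule numbers were not taken as pairs. Replicate 1 alone did deviate together in successive ages from P1 on, with r of 0.341 for P8 with P14 and 0.347 for P14 with P30. It did not for E15.5 with P1 (-0.0437) or for P8 SGNs with glia (-0.148). What same-numbered libraries share was not tested. With the replicate block the count of members called was 3 from E15.5 to P1, with *Calb1* added (limma adjusted p = 0.019), and 1 from P14 to P30. Library size alone moved the median of all genes by -0.48 from E15.5 to P30, -0.55 in the SGN mean against HCs and 0.49 between HCs and glia. With 3 libraries a group, *Ocm*, which ran from 29.3 to 506 TPM at P14, has intervals too wide to show differences of several fold between ages.

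Calls over all genes ran over the alternatives from 552 to 1772 for E15.5 to P1 (1248 as reported), 649 to 1458 for P1 to P8 (1124), 28 to 198 for P8 to P14 (81), 1 to 110 for P14 to P30 (9), 2849 to 6001 for the SGN mean against HCs (4694), 2017 to 5064 for the SGN mean against glia (4326), 1942 to 4133 for P8 SGNs against glia (3662) and 2226 to 4901 for HCs against glia (4272).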

Other observations

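Over the 15 SGN libraries, which span the 5 ages and differ in depth, the levels of *Calb2* and *S100b* in log2(TPM + 1) had a Pearson r of 0.931, *Pvalb* and *Calb2* of 0.873, and *Pvalb* and *S100b* of 0.824. *Ocm* had an r of 0.143 with *S100a1* and of 0.278 with *Pvalb*. The TPM scale of a library is common to all its genes and differed between libraries. *Pvalb* at 182.9 CPM stood at 145 TPM in E15.5 replicate 2, and at 626.2 CPM it stood at 1504 TPM in P14 replicate 3. These r values are descriptions across libraries of different ages, and no test was made.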
